A study of Mus musculus with 15 samples.

Results

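The regions described here are 505 probes of a promoter array that gave a brighter signal in the Cy3 channel, labelled J1, than in the Cy5 channel, labelled TKO, on every array. Methylated DNA immunoprecipitation (MeDIP), in which an antibody pulls down methylated DNA, was compared between TKO and J1. TKO is a mouse embryonic stem (ES) cell line deficient in DNA methylation, and J1 is the wild-type ES cell line. Both were cultured with LIF and without feeder cells for 2 passages before harvest, and each genotype is 1 line, so differences among lines of 1 genotype were not sampled. The design has 7 hybridisations of array part 1 (chromosomes 1 to 7, X and Y) and 7 of part 2 (chromosomes 8 to 19), from different passages, and 3 expression arrays of RNA from both lines, deposited as 1 sample. The measured quantity is the deposited log10 ratio of Cy5 over Cy3, that is labelled TKO over labelled J1, so a negative value is a brighter Cy3 signal. A probe was chosen if its log10 ratio was below 0 on all 7 arrays of its part and its mean was at most -0.15. Probes annotated to chromosome 8 were left out. The rule took 505 of 76394 probes, 262 on part 1 and 243 on part 2, which is 0.661% of the probes. These ratios chose the probes, so they are given below as a description and were not tested.

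No dye was swapped on the MeDIP arrays, so dye and cell line cannot be told apart there, and the channels are named by their labels throughout. The labelled direction is itself in doubt. Many germ cell promoters are known to carry methylation in ES cells. Their mean log10 ratio over a gene's probes was above 0, towards the channel labelled TKO, at 10 of 13 genes (median 0.053, from -0.0605 to 0.279). At 7 of the 13 it was above 0 on all 7 arrays. Over all probes, counted singly and not by gene, 54.2% had a mean below 0. Which line a brighter Cy3 signal stands for is therefore not settled. Correlations between arrays, over all probes, lay between 0.343 and 0.754 on part 1 and between 0.392 and 0.727 on part 2. Between 88.2% and 99.7% of the probes of an array were well above background in a channel. The number of arrays limits the precision.

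In mammals, DNA methylation sits mostly on cytosine in CpG dinucleotides. Dnmt1 copies it to the new strand after replication, and Dnmt3a and Dnmt3b, helped by the inactive relative Dnmt3l, set it newly. Promoters rich in CpG are usually unmethylated in ES cells, whereas germ cell genes and many CpG-poor promoters carry methylation. The MeDIP antibody binds methylated cytosine, so the number of CpGs in a fragment bears on how much of it can be pulled down.

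The promoters of 4 genes are shown because a member probe lay, by the array's own annotation, between 250 bases before and 50 bases after the start, kept its mean at or below the threshold without its lowest array, and was among the lowest such means at a gene with exactly 1 promoter in the RefSeq table. Ddx25, whose window overlaps that of Pus3, is left out. Mpnd and Pus3 share their promoters with Stap2 and Ddx25, and the distance is from the nearest annotated start. Whether that start is the one of the gene shown, and whether the window holds the probe, was not determined. The Pus3 probe had -0.88 on replicate 7 of part 2, with the other arrays between -0.28 and -0.0516. Sequences are from RefSeq (GRCm38.p6), 300 bases each, 5′ to 3′ on the gene's strand, with each CpG in capitals. The Mpnd window is chr17:56008951-56009250 on the plus strand, that of Nsfl1c chr2:151493932-151494231 on the plus strand, that of Pus3 chr9:35558310-35558609 on the plus strand and that of Gabra4 chr5:71658259-71658558 on the minus strand.
Mpnd: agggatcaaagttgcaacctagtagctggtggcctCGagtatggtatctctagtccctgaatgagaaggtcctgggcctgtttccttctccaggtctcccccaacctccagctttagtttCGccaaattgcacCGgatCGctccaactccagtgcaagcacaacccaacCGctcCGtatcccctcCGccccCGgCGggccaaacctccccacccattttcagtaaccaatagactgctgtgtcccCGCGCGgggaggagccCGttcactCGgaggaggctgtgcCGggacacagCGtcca
Nsfl1c: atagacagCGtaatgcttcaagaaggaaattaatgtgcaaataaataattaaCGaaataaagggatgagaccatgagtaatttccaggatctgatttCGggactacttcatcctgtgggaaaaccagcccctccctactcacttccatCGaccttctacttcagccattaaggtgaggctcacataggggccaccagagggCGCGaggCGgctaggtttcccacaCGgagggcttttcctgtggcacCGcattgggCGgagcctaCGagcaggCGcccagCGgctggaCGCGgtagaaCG
Pus3: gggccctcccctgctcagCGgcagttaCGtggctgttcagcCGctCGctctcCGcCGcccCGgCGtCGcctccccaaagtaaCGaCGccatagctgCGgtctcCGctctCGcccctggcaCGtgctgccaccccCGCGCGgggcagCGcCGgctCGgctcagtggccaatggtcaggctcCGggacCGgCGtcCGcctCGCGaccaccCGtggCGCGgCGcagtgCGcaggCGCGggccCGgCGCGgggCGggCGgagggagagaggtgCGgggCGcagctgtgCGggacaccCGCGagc
Gabra4: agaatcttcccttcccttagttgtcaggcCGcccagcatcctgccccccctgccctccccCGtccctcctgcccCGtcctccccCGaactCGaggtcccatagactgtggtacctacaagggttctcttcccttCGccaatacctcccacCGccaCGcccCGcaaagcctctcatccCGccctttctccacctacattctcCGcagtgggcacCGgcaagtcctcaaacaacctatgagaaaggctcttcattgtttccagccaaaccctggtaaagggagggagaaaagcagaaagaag
Mpnd and Nsfl1c each hold 16 CpGs, a number reached by 33.0% of the 32851 RefSeq promoters. Gabra4, a subunit of the GABA-A receptor, holds 12, reached by 39.6%, and Pus3, a pseudouridine synthase, holds 44, reached by 2.25%. The promoters shown thus differ in CpG content. Of 106 genes with a member in the same span around the start, 85 had a promoter in the table (80.2%), with a median of 18 CpGs (quartiles 13 and 25). Of 12165 genes with any probe there, 9742 did (80.1%), with a median of 17 (quartiles 6 and 25). Genes chosen by the mirrored rule, above 0 on all 7 arrays with a mean of at least 0.15, had a median of 5 (462 of 559 genes matched, quartiles 2 and 13).

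Most members were small in size. The median of their mean log10 ratios was -0.165, against -0.00763 over all 76394 probes, and 439 of the 505 had a mean above -0.20. Means of 7 members were at or below -0.30. The mirrored rule on the Cy5 side took 4461 probes, 5.84% of the probes. On single arrays the median over members lay between -0.191 on replicate 6 and -0.136 on replicate 1 of part 1, and between -0.194 on replicate 2 and -0.119 on replicate 1 of part 2. The medians over all probes of an array lay between -0.0098 and -0.000696. Member medians below these follow from the rule, which asked for values below 0 on every array. Replicate 6 of part 1 held the lowest value for 83 of its 262 members, and replicate 2 of part 2 for 69 of its 243. Without their lowest array, 301 of the 505 members had a mean above -0.15.

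The lowest means were single probes that were far brighter in Cy3 on every array. A probe at the shared promoter of Stap2, an adaptor protein of cytokine and kinase signalling, and Mpnd, an MPN domain protein, ran from -1.14 to -0.557 with a median of -0.824. It lies at chr17:54288396-54288456 (build not given in the sources used here), 237 bases before the nearer start. Its mean was -0.885 ± 0.247 (SD, n = 7), a Cy5 signal of 659.6 against a Cy3 signal of 5067 (geometric means), and the arrays nearest 0 still lay well below the threshold. The 6 other probes of this promoter had means between -0.0978 and -0.0246.

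At Slitrk1, a synaptic adhesion protein of neurons, 1 probe at chr14:101195692-101195752, 789 bases before the start, ran from -1.07 to -0.574 with a median of -0.88. Its mean was -0.882 ± 0.164 (SD, n = 7), with a Cy5 signal of 893.9 against a Cy3 signal of 6823. The other 4 Slitrk1 probes had means between -0.0537 and 0.0767, so the large ratio was at 1 probe of 5.

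The same held with smaller ratios at 3 more genes. At Rhog, a small GTPase of the cytoskeleton, the probe 1440 bases before the start ran from -0.783 to -0.289 (median -0.443, mean -0.485 ± 0.19, SD, n = 7), while the 5 other probes had means between -0.0321 and 0.161. At Pakap, a membrane and kinase anchoring protein listed on the array as Palm2, the probe 90 bases before the start ran from -0.688 to -0.206 (median -0.462, mean -0.45 ± 0.178). Its 4 companions had means between -0.0467 and 0.11. At Wdr74, which acts in ribosome assembly, the probe ran from -0.709 to -0.158 (median -0.382, mean -0.421 ± 0.207). All 7 arrays thus lay past -0.15 at these 5 promoters.

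**Figure D1:**
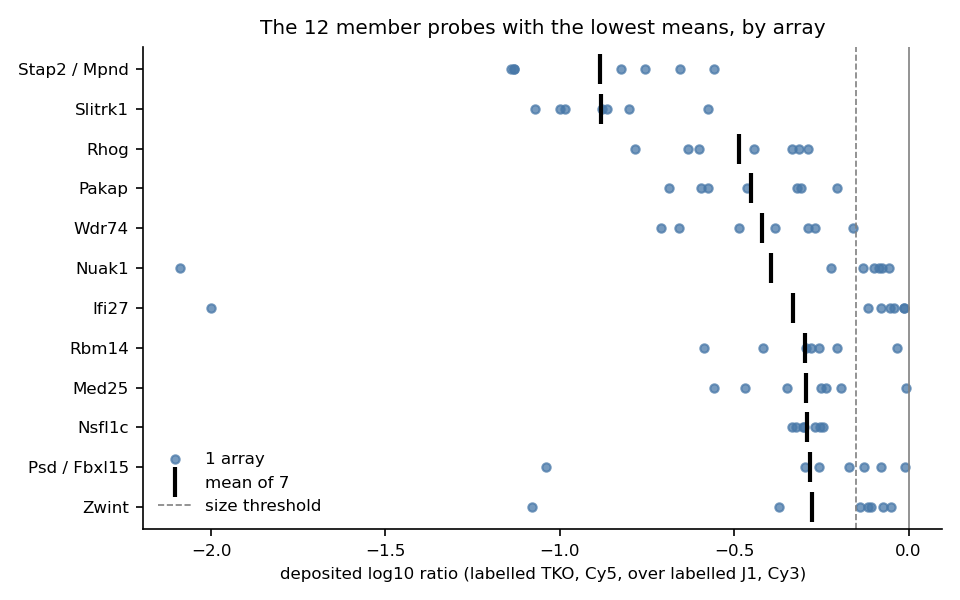
Deposited log10 ratio of labelled TKO (Cy5) over labelled J1 (Cy3) on the horizontal axis for the 12 members with the lowest means, 1 per promoter; points are arrays, black bars are means and the dashed line is the threshold of -0.15. The first 5 probes lie past the threshold on all 7 arrays, while Nuak1 and Ifi27 have 1 array near -2 and most others near 0.

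At other members the low mean came from 1 array. The probe at Nuak1, a kinase related to AMPK, had -2.09 on replicate 5 of part 2, and its mean was -0.394 over 7 arrays and -0.111 over the 6 others. The Ifi27 probe, at an interferon-inducible gene, had -2 on replicate 4 of part 2, and its mean was -0.331 over 7 arrays and -0.0528 over the 6 others. The shared promoter of Psd, an exchange factor for Arf6, and Fbxl15, an F-box protein, had -1.04 on replicate 4, with a mean of -0.283 that became -0.157 without it. Zwint, a kinetochore protein, had -1.08 on replicate 2, with a mean of -0.277 that became -0.143 without it. The Zwint spots were among the dimmest, well above background in Cy5 on 1 of 7 arrays and in Cy3 on 3. Nuak1, Ifi27 and Zwint thus passed the size rule through 1 array. The remaining probes of the 12 lowest were at Rbm14, an RNA-binding protein of paraspeckles, and Med25, a Mediator subunit. They ran from -0.586 to -0.0326 (median -0.279) and from -0.559 to -0.0081 (median -0.252). The Med25 probe lay 3625 bases from the nearest annotated start.

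At Nsfl1c, a cofactor of the p97 ATPase, the ratios were moderate, close to each other and spread over neighbouring probes. The probe 133 bases before the start, at chr2:151557493-151557553, ran from -0.335 to -0.244 with a median of -0.301, and its mean of -0.29 ± 0.0345 had a smaller SD than the other 11 lowest members. Probes 116 and 396 bases inside the gene were also members, with means of -0.253 ± 0.0822 and -0.21 ± 0.0384 (SD, n = 7). The 3 further probes had means between -0.134 and -0.0403. All 6 probes of this promoter thus lay on the Cy3 side, lowest around the start.

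The members fell in 470 promoters, of which 454 held 1 member, 13 held 2 and 3 held more. Of the 489 members with another probe within 600 bases, 27 had a member among those probes. Of all probes 0.661% were members, and the same count around other probes was not made. The neighbours' mean was below 0 for 424 of the 489 (86.7%), with a median of -0.0425 (quartiles -0.062 and -0.0187), against 54.2% of all probes with a mean below 0. This is the same contrast that chose the members and is given as a description.

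**Figure D2:**
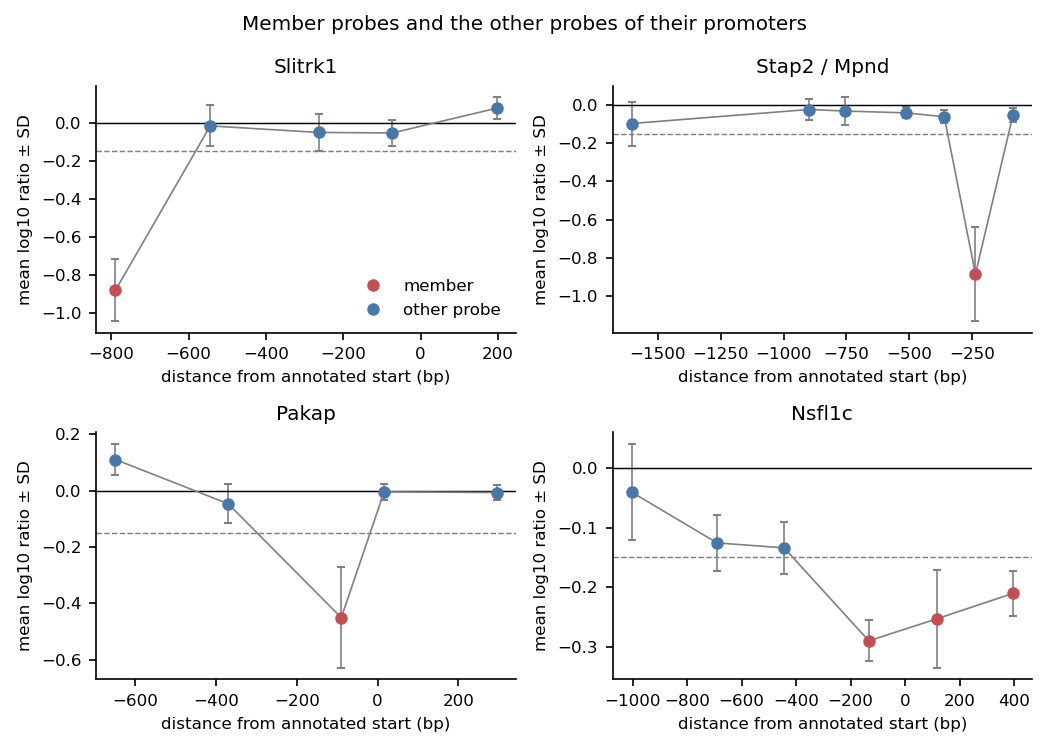
Mean log10 ratio ± SD over 7 arrays (vertical axis) against distance from the annotated start in bp, for the probes of 4 promoters; red points are members, blue points are other probes and the dashed line is -0.15. At Slitrk1, Stap2 / Mpnd and Pakap a lone probe is low, and at Nsfl1c the 3 probes from -133 to 396 are.

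Among promoters as the array names them, Prcp, a lysosomal carboxypeptidase, also had 3 members, where 3 of 11 probes had means of -0.262, -0.175 and -0.166. Eif3f, a translation initiation subunit, had 3 members over a pair of array regions, with means of -0.185, -0.152 and -0.152. Another probe of the Prcp promoter had a mean of 0.141, so the direction changed within it. The promoters with 2 members and the lowest means, besides the Y-linked Sly, were those of Pgk1, a glycolytic enzyme (lowest mean -0.203), the unnamed transcript 6330444E15Rik (-0.194), the olfactory receptor Olfr385 (-0.188), Scap, the chaperone of the sterol-sensing factor SREBP (-0.187), Lrmp, a lymphoid membrane protein (-0.186), and the shared promoter of Tomm6, a mitochondrial import subunit, and Frs3, an adaptor of FGF receptors (-0.177). The lower Pgk1 probe was dim, with signals of 54.67 in Cy5 and 87.34 in Cy3. It was well above background on 4 of 7 arrays in Cy5 and on 5 in Cy3. The lower Lrmp value rests on replicate 6 of part 1 at -0.611, and its mean without it was -0.115. That of Tomm6 and Frs3 lay 2948 bases from the nearest annotated start. It rests on replicate 4 of part 2 at -0.517, without which its mean was -0.121.

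Around the threshold the values ran on without a gap. Members nearest inside lay at Riok3 and Tmem241, at Dusp19, at Pir and at Mrps23, with means from -0.15027 to -0.15006. The 5 probes nearest outside that were below 0 on all arrays lay at Dctpp1, Gnal, Pfdn6, Trib2 and Pced1a, with means from -0.14991 to -0.14977.

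Chromosome Y held the highest share of members. On it 23 of 272 probes were members (8.46%), against 0.153% on chromosome 12 (4 of 2606 probes) to 0.941% on chromosome 13 (30 of 3189) on the other chromosomes. The Y members were nearly all at 1 repeated unit. Of 110 probes whose annotation names the transcript BC049626, 20 were members, and the other 3 were 2 probes at Sly, a multicopy gene of spermatids, and 1 at 4933439C20Rik. The 21 probes of Uty, a histone demethylase relative, included no member, with means between -0.0561 and 0.201, nor did the 11 of Usp9y, a deubiquitinase, with means between -0.112 and 0.141.

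The BC049626 members came back at like distances from the start of each copy. Between 184 and 221 bases inside the transcript 10 of 11 probes were members, with a median of -0.168. Between 579 and 614 bases upstream 5 of 14 were, with a median of -0.13, and between 873 and 938 bases upstream 5 of 12, with a median of -0.12. No other window held one, and at 308 to 334 bases upstream all 13 probes lay between -0.0526 and -0.0325. The copies carry the same annotated transcript, so their probes may share a target and were not counted as independent observations. On the 7 arrays the median of the 11 probes inside the transcript was -0.169, -0.155, -0.0484, -0.196, -0.191, -0.213 and -0.197 in the order of the replicates. Replicate 3 stood nearest 0 there, and it was also the array on which the median of all Y probes was above 0, at 0.0305, against -0.0649 to -0.0103 on the others.

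**Figure D3:**
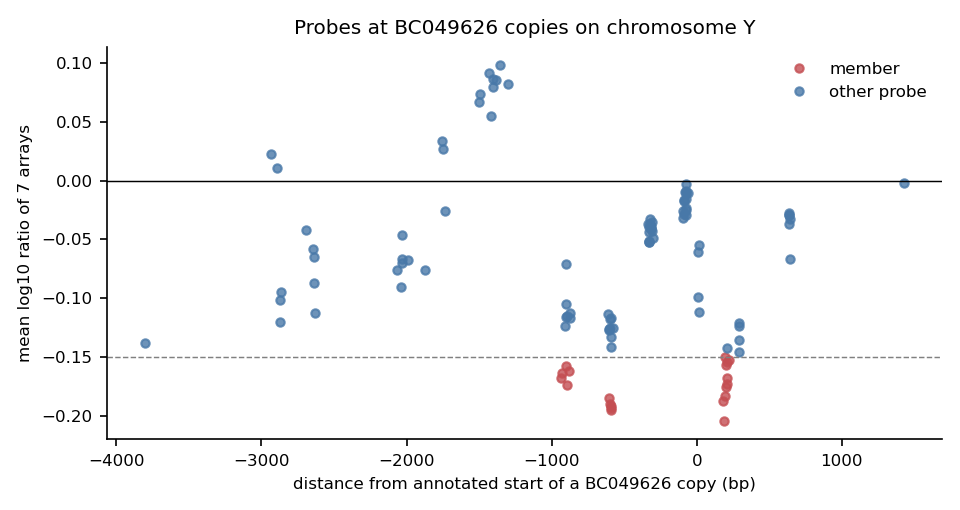
Mean log10 ratio over 7 arrays (vertical axis) against distance from the annotated start of a BC049626 copy on chromosome Y in bp, for 110 probes; red points are members, blue points are other probes and the dashed line is -0.15. Members form 3 columns, up to 938 bp upstream, up to 603 bp upstream and up to 221 bp inside, between columns of probes that are closer to 0.

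By position the members lay close to starts, as most probes of the array do. Within 1000 bases of a start lay 461 members (91.3%), against 82.6% of all probes. The share of probes that were members was 1.01% between 500 and 200 bases upstream and 1.17% (16 of 1362) between 500 and 1000 bases inside, and it was 0.318% between 2000 and 1000 bases upstream. By the array's classes, members were 0.995% of the probes in promoters shared by 2 genes (48 of 4823), 0.609% of those in promoters of 1 gene (262 of 42998) and 0.647% of those inside genes (174 of 26890). Probes with no class, which include the BC049626 copies, had 1.69% (20 of 1182). These shares were not tested.

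Members were on the whole dimmer than other probes, and those on the Y chromosome were bright. The median signal of members was 454.9 in Cy5 and 678 in Cy3, against 870.7 and 868.2 over all probes. When probes were ranked by mean brightness of both channels, the share of members was 1.26% in decile 2, 0.327% in decile 8 and 0.812% in decile 10. All 23 Y members were in decile 10, with median signals of 14780 in Cy5 and 23700 in Cy3. Members were well above background on all 7 arrays for 85.1% in Cy5 and 95.6% in Cy3, against 91.3% and 88.8% of all probes. The scanner software replaced a low Cy5 signal with a surrogate on at least 1 array for 7.52% of members and 4.14% of all probes. A spot was marked as uneven or outlying on at least 1 array for 10.5% of members and 5.28% of all probes. No member was saturated. The part of dimness and of marked spots in the member ratios was not tested. With both channels well above background on all 7 arrays required, 429 members were left.

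**Figure D4:**
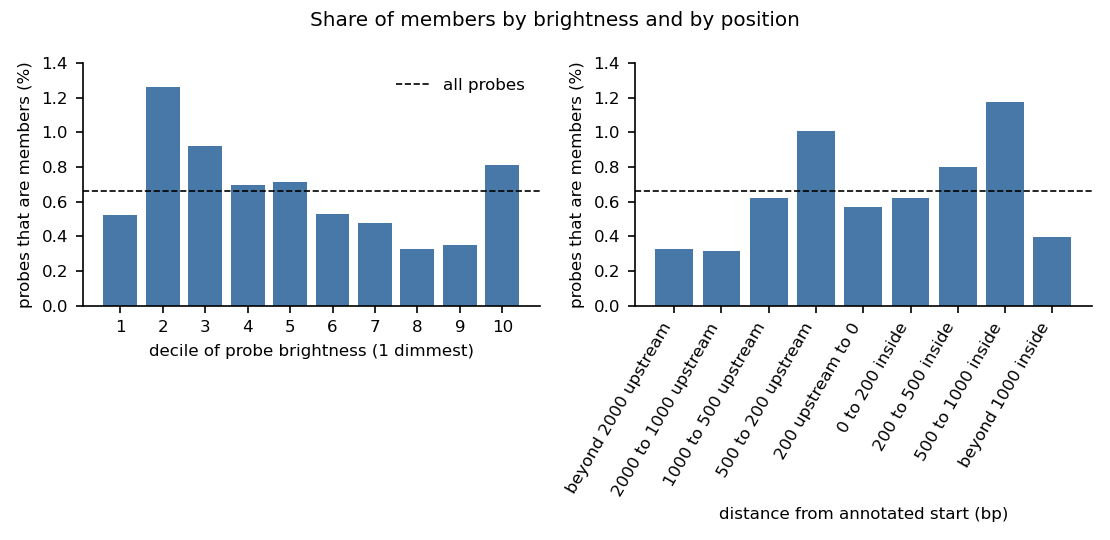
Percent of probes that are members (bars), by decile of mean probe brightness on the left and by distance from the annotated start on the right; dashed lines are the 0.661% of all probes. The share is highest in decile 2 at 1.26% and lowest in decile 8 at 0.327%, and it is above the line from 500 to 200 bp upstream and from 200 to 1000 bp inside.

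How many probes met the rule depended on the background correction and the normalization. With normexp correction of the raw signals and median centring 56 probes met it, 49 of them members. With loess on the processed signals 789 did, 388 of them members, and with median centring of the processed signals 380 did, 375 of them members. The Stap2 / Mpnd, Slitrk1 and Nsfl1c means were -0.761, -0.802 and -0.236 under normexp, whereas that of Ifi27 became 0.0631.

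Member probes carried the names of 503 genes, 3.73% of the 13492 on the arrays, and 25 probes had no current gene name. By gene family the share ran from none to 11.6%, in counts that were not tested. Of 644 olfactory receptors 7 had a member (1.09%), Olfr385, Olfr519, Olfr1506 and Olfr151 having the lowest means (-0.188 to -0.157). Vomeronasal receptors had 3 of 81 (3.7%), Vmn1r46, Vmn1r21 and Vmn1r45, cytochromes P450 1 of 66 (Cyp2s1, -0.16) and keratins and defensins none of 58 and 5. Of 145 ribosomal proteins 10 had one (6.9%), among them the mitochondrial subunits Mrpl17 (-0.223) and Mrps35 (-0.179) and the cytosolic Rpl24 (-0.198) and Rps16 (-0.168). Of 57 histones 4 had one (7.02%), H3c10, H2bc15, H4c8 and H2bc9, which have near-identical copies. Zinc finger proteins of the Zfp series had 12 of 192 (6.25%), led by Zfp219 (-0.198), Zfp369 (-0.19), Zfp341 (-0.189) and Zfp113 (-0.18). The Zfp219 member lay 9484 bases from the nearest annotated start. Proteasome, RNA polymerase and translation initiation genes had 7 of 106 (6.6%), led by Eif1a, Eif3f, Psmb2 and Eif4e3 (-0.186 to -0.159).

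None of the 13 germ cell genes and none of the 13 pluripotency genes listed had a member probe. Over all genes of the promoter arrays the share was 3.73%, and lists this short cannot tell none from that share. They do not hold every gene of their kind. The germ cell genes Sohlh2 and Ddx25, not listed, had member probes with means of -0.177 and -0.263. So did Eras, an ES cell gene (-0.191). These were named after their values were seen. Of 51 developmental regulators bound by Polycomb in ES cells, 4 had a member probe (7.84%). Nkx6-1, a regulator of neural and pancreatic cells, ran from -0.245 to -0.0514 with a median of -0.191, and Tbx15, Msx1 and Hoxa11 had means of -0.156, -0.152 and -0.15. Of 43 adhesion genes of the Slitrk, Lrrtm, Flrt, netrin-G, cadherin and protocadherin families, 5 did (11.6%). After Slitrk1 these were Pcdh12 (-0.217), Pcdh18 (-0.165), Pcdhb9 (-0.164) and Flrt3 (-0.161). Slitrk1 and Pcdh12 lay below -0.20, where 66 of the 505 members lie.

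RNA was compared between the lines on the 3 expression arrays, whose values had no part in choosing the probes. The deposited table turned replicate 2 for its dye swap. The methyltransferases that TKO cells are known to lack checked the direction, though where their probes lie relative to the disrupted exons was not determined. Dnmt3b had log2 ratios of TKO over J1 of -2.72, -2.44 and -2.34, Dnmt3a -2.49 and -2.23 on the 2 arrays where its spots were usable, and Dnmt1 -0.889 and -1.25 on 2. With processed signals Dnmt3a had -3.61, and Dnmt3b had -3.77 in the authors' deposited table. All were lower in TKO on each array measured, with adjusted p of 9.7e-07, 5.4e-06 and 0.000363 (limma, Benjamini-Hochberg over 13723 genes). The sources used here do not tie the 3 arrays to separate cultures, and the p-values then measure only the spread between arrays, which may be technical.

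The RNA of genes with a member probe was called about as often as that of other genes. Of the 503 genes, 474 were on the expression array and 328 were bright enough to be tested. Of these 59 rose in TKO (18%), 48 fell (14.6%) and 221 did not pass an adjusted p of 0.05 (limma, 2 or 3 usable arrays for a gene). Among all genes tested, 8836 were measured on all 3 arrays. Over all 13723 genes tested 16.5% rose and 15.5% fell, and over the 7159 tested genes of the promoter arrays 17.3% rose and 15.3% fell. The median log2 ratio was -0.00864 for genes with a member probe and 0.00478 for all promoter-array genes. Past a 2-fold change, 5 rose (1.52%) and 2 fell (0.61%), against 1.53% and 0.641% of all genes tested and 1.61% and 0.684% of the tested promoter-array genes. With median centring in place of loess the median of all genes was -0.10, and the calls were 9 higher (2.74%, against 2.81% of all genes) and 13 lower (3.96%, against 5.22%). Fewer genes were tested when an expression replicate was left out. Without replicate 1, 31 of 204 genes rose (15.2%, against 13.5% of all genes) and 20 fell (9.8%, against 10.7%). Without replicate 2, 25 of 205 rose (12.2%, against 12.1%) and 18 fell (8.78%, against 11%). Among genes whose member kept its mean at or below -0.15 without its lowest array, 30 of 126 rose (23.8%) and 27 fell (21.4%), a subset chosen after seeing the data.

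Genes with a member probe were more often detected. Their RNA was well above background on all 3 arrays for 65.6% in TKO and 67.7% in J1, against 52.3% and 53.8% of the genes of the promoter arrays with no member probe. This difference in share was not tested.

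Of the promoters with the lowest means or the most members, 14 genes were tested for RNA, of which 3 rose and 2 fell, against 16.5% and 15.5% of all genes tested. Stap2 had RNA log2 ratios of -0.137, -0.222 and -0.0278 (fitted -0.13, adjusted p = 0.261, limma) and Mpnd 0.145, -0.139 and -0.0383 (fitted -0.01, adjusted p = 0.942). Nsfl1c, with 3 members, had 0.189, 0.0936 and -0.0226 (fitted 0.09, adjusted p = 0.459), and Prcp a fitted -0.14 (adjusted p = 0.243). Med25, Fbxl15, Zwint, Scap and Tomm6 did not pass either, with adjusted p from 0.0705 to 0.98. Rhog, Wdr74, Psd, Olfr385, Lrmp, Sly and Frs3 were too dim to be tested, and Slitrk1 had no named probe. Pakap, with fitted RNA of 0.94, Nuak1 (0.27, adjusted p = 0.045) and Ifi27 (1.67) rose, and Rbm14 (-0.55, adjusted p = 0.000971) and Pgk1 (-0.43, adjusted p = 0.0197) fell, in limma's fit. Nuak1 lost its call under 5 alternatives (adjusted p up to 0.712, limma), and its value was 0.76 with processed signals and 0.72 in the authors' deposited table. Pgk1 lost its call under 3 (0.0621 to 0.15, limma) and had -0.20 in the authors' deposited table, and Rbm14 had -0.86 with median centring.

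The RNAs of genes with a member probe that rose most in TKO were led by Ctsl, the lysosomal protease cathepsin L, with log2 ratios of 1.89 and 1.49 on 2 usable arrays (fitted 1.69 ± 0.123, SE, adjusted p = 4.14e-05, limma). Ifi27 had 1.69 and 1.64 on 2 arrays (adjusted p = 1.72e-05, limma). Its member probe is the one whose mean rests on replicate 4 of part 2. Serf1, a small conserved protein, had 1.4, 1.54 and 1.63 on 3 arrays (adjusted p = 5.4e-06, limma). Flrt3, an adhesion protein that acts with FGF receptors, had 1.25, 1.32 and 1.27, and its member probe, 258 bases inside the gene, had a mean of -0.161 ± 0.0263 (SD, n = 7). Genes were named only where all arrays measured had the same sign.

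Lox, which crosslinks collagen, rose by 1.37 and Pxdc1 by 0.80, each on 2 arrays. The glutamate transporter Slc1a1 rose by 0.99, Pakap by 0.94 and the vesicle SNARE Vamp4 by 0.79. All these values are log2 and were called by limma. With Agilent's processed signals the values of Lox, Flrt3 and Pxdc1 were 2.22, 1.94 and 1.31, and Pxdc1 had 1.39 in the authors' deposited table. Dnmt3l, the partner of the de novo methyltransferases, had 0.925, 0.713 and 0.744 (fitted 0.79 ± 0.0835, SE, adjusted p = 0.000161, limma). It had 2 member probes, 267 bases inside the gene (mean -0.186 ± 0.0704) and, at the promoter shared with Aire, upstream (mean -0.174). With median centring the Dnmt3l value was 0.42 and its call was lost (adjusted p = 0.264, limma), as was that of Vamp4 (adjusted p = 0.0705).

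The largest falls were at BC028528, an uncharacterised gene that shares its promoter with Aph1a, with log2 ratios of -1.35, -1.14 and -1.08 (fitted -1.19 ± 0.0864, SE, adjusted p = 2.08e-05, limma), and at Tmem19, a membrane protein, with -1.02, -1.03 and -1.19 (adjusted p = 2.74e-05). The member at BC028528 had -0.981 on replicate 4 of part 1, and its mean of -0.255 was -0.134 without its lowest array. Pipox, a peroxisomal oxidase, fell by 0.89, Ints13, an Integrator subunit, by 0.77, Myo10, the myosin of filopodia, by 0.75, and the zinc finger factor Zbtb5 by 0.71. Pheta1, an endocytic protein, fell by 0.69, Zfp219 by 0.69, Mplkip by 0.69 and the acyl-CoA binding protein Acbd4 by 0.67. The values of Pipox, Ints13, Myo10, Zfp219 and Acbd4 each rest on 2 usable arrays. Those of Pipox, -0.513 and -1.27, lay far apart. With median centring the values of Ints13, Myo10, Zfp219 and Acbd4 were -0.75, -0.72, -0.73 and -0.68, and their adjusted p 0.056, 0.0719, 0.0659 and 0.0923 (limma), and Pipox reached 0.0751 with no filter on dim probes.

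Within the families, 1 of 10 tested ribosomal protein genes rose, Rps16, at 0.656, 0.0141 and 1.15 on the 3 arrays (adjusted p = 0.0237, limma), which spread widely. Over all genes tested 16.5% rose and 15.5% fell. Of 8 tested Zfp genes 3 fell, Zfp219, Zfp281 (-0.66) and Zfp51 (-0.37), and of 7 proteasome, polymerase and initiation genes 1 rose, Eif4e3 (0.42), and 1 fell, Polr1a (-0.60), named after their values were seen.

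**Figure D5:**
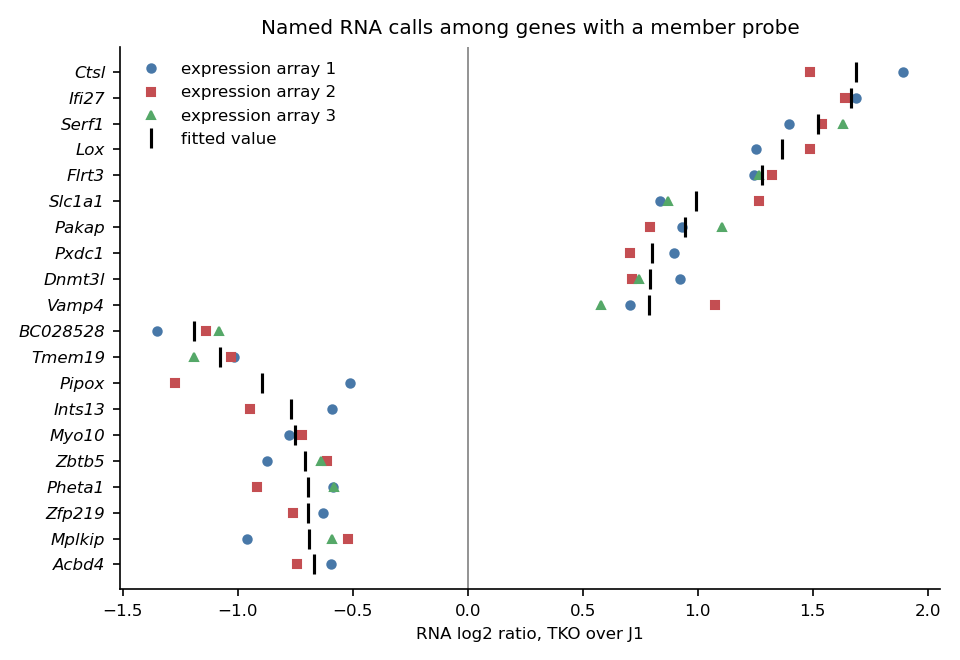
RNA log2 ratio of TKO over J1 (horizontal axis) for the 10 most increased and 10 most decreased named calls among genes with a member probe; coloured points are the expression arrays and black bars the fitted values. All points of a gene lie on 1 side of 0, from 1.89 at Ctsl to -1.35 at BC028528, and genes with 2 points had no usable spot on the third array.

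Markers of other cell types moved with the RNA comparison. Of 6 primitive endoderm markers 4 were higher in TKO and none lower (limma), and their summed processed signal was 24250 to 28920 in TKO and 2323 to 4718 in J1. Of 6 trophoblast markers 2 were higher, with sums of 308800 to 539900 in TKO and 70150 to 102200 in J1. Only Krt8, Krt18 and Tfap2c of these were well above background on all arrays of a line, and Cdx2, Elf5 and Hand1 were not. Which genes carried the sum was not determined. Of 6 fibroblast markers, Lox included, 4 were higher and 1 lower, with sums of 48550 to 81100 in TKO and 47590 to 81700 in J1. Of the 6 ES cell markers on the array, 3 were lower in TKO and none higher. In both lines 5, with Pou5f1, Sox2 and Zfp42 among them, were well above background on all arrays. The summed processed signal of the 6 was 913400 to 1349000 in TKO and 713800 to 1078000 in J1. That sum was thus not lower in TKO, and the ranges overlapped. No marker on the array was below background throughout. In these bulk samples a different share of cells and a different RNA level per cell cannot be told apart, and the part of the markers in the RNA calls was not tested.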

How the data were processed

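Both kinds of array are Agilent 2-colour arrays scanned with Feature Extraction 8.5, per the submitters' processing notes. Per the file headers, background had been subtracted from the deposited intensity values, and the dyes balanced linearly on MeDIP and by LOWESS on expression arrays. The deposited MeDIP log10 ratios were used unchanged; they equal the scanner's red over green ratio within 0.005. Brightness was the mean of the log2 processed signals of both channels.

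Expression arrays were processed with normexp (offset 50) and loess in limma 3.58.1 (R 4.3.3), as log2 of TKO over J1 with replicate 2 turned. The labels do not fix which line was in which dye, so the Dnmt genes checked it. Uneven spots were dropped, repeated spots were averaged, and a gene with several probes took its brightest one. A gene needed 2 usable arrays and a probe well above background in TKO or J1 on all 3 arrays. The fit ran over all 13723 genes with Benjamini-Hochberg adjustment and was tested on simulated data. It correlated at r = 0.922 across genes with the deposited table. Genes were named through RefSeq accessions (22090 of 41174 expression probes). A gene near several starts has its distance from the nearest.

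Alternatives changed background correction, normalization, filters, thresholds and replicates. Named were the 12 lowest members, the 10 promoters with most members, 5 probes on each side of the threshold, up to 4 members per gene list, and the 10 highest and 10 lowest RNA calls of 1 sign. The members and lists were chosen with earlier results of these data known, and the printed promoters after their values were seen. An item that these rules select is not reported here. Slide codes repeat between some arrays.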

Additional observations from a re-analysis of the deposited data

Results flagged for a closer look

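Of 31 named member probes, 9 had 1 array whose gap to the others was large for 7 values. Chance gives about 1 in 20 in unselected values, but these values chose the members by a mean that a single low array can carry, so the number is a description. On part 2 these were Nuak1 (listed as B230104P22Rik) at -2.09 on replicate 5, with the others between -0.221 and -0.0558, Ifi27 (listed as D12Ertd647e) at -2 on replicate 4, with the others between -0.115 and -0.0141, Psd and Fbxl15 at -1.04 on replicate 4, Zwint at -1.08 on replicate 2, and Tomm6 and Frs3 at -0.517 on replicate 4. On part 1, Lrmp had -0.611 on replicate 6. Of the 3 Prcp members, the probe listed at 208 bases had -0.53 on replicate 2, that at -196 had -0.281 on replicate 2, and that at -475 had -0.0612 on replicate 1, nearer 0 than the rest. Over all 505 members, 92 had such an array on the low side (18.2%) and 16 on the high side (3.17%).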

How the results depend on the processing

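The count of member probes was 505. It was 56 with normexp, 789 with loess within arrays, 3747 at a mean threshold of -0.10 and 66 at -0.20. It stayed within 1.5 times under processed signals (380), filters on dim or marked spots, the mean alone (628) and, added after seeing the data, the median over arrays (446). Leaving out 1 replicate gave 457 to 745. The sets changed more than the counts: 328 of the 505 members were among the 446, and 373 to 466 stayed when 1 replicate was left out. RNA calls among genes with a member probe were 59 higher and 48 lower of 328 tested (18% and 14.6%), against 16.5% and 15.5% of all genes. With median centring they were 9 and 13 (2.74% and 3.96%), against 2.81% and 5.22% of all genes. With only members that stay below the threshold without their lowest array, they were 30 and 27 of 126 genes (23.8% and 21.4%). That subset was added after seeing the data, and the shares of all genes beside it are the 16.5% and 15.5%. Leaving out 1 expression replicate gave 25 to 54 higher and 18 to 43 lower, of 204 to 327 genes tested, against 12.1% to 14.6% and 10.7% to 13.4% of all genes. RNA values that were not called reversed sign near 0: Mpnd to 0.0174 with processed signals, with -0.0886 to 0.0534 when 1 replicate was left out, Med25 to -0.00302, -0.0214 and -0.0746 with processed signals, median centring and the mean over probes, and Nsfl1c to -0.187 and Scap to -0.0296 with median centring. Of the called named genes, Nuak1 lost its call under 5 alternatives (adjusted p up to 0.712, limma). Pgk1 lost its call with processed signals, median centring and no filter (0.0621 to 0.15). The slide as a random block could not be fitted with 3 expression arrays. No paired analysis was possible because the ratio within each array already pairs the lines, and no block by replicate number was left to add. Dim spots limit what the ratios can show.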
